A study of Mus musculus with 8 samples.

Results

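Fmod, the gene of fibromodulin, was higher in E18.5 lungs that overexpressed MIA, which is what it was chosen for. Of the 6 relatives that could be tested none passed the threshold. Over all genes 0.673% passed, so that count is no result about the relatives. Whether Fmod differs from its relatives in its response was not tested. The family described here is that of the small leucine-rich proteoglycans, represented by Fmod, Lum, Prelp, Omd, Dcn, Bgn, Aspn and Ogn. Its members were taken as all probe sets annotated to exactly 1 of these symbols, which gave 19 of 45037 probe sets and 8 of 18193 genes on the E18.5 arrays, and 9 of 12422 probe sets and 6 of 8251 genes on the older E11.5 arrays. Prelp and Aspn were not analysed at E11.5. The family was chosen on the Fmod signals of both comparisons, higher in the bitransgenic lungs and in E11.5 lung, so Fmod's values are given as a description, with no test. The relatives were added for their kinship.

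Small leucine-rich proteoglycans are secreted proteins built from a curved row of leucine-rich repeats. They bind collagen fibrils and set their width and spacing, many carry chondroitin, dermatan or keratan sulphate chains, and some also bind the growth factor TGF-beta. In the lung they are known as products of connective tissue cells around airways, vessels and airspaces.

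RNA came from 3 bitransgenic FVB/N lungs at E18.5, which carried an SP-C/MIA double transgene, and from 3 single transgenic littermate control lungs of the same strain and age. E11.5 FVB/N lung and E11.5 FVB/N trachea were measured on 1 array each. SP-C is surfactant protein C, made by lung epithelium, whereas MIA is a small protein secreted by melanoma cells and cartilage. The labels do not say which transgene the controls carried, whether an inducer was given to either group, or whether any sample was pooled, so that p-values measure the spread between these arrays.

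The values were MAS5 signals, a linear brightness per probe set. Median signals were 421 to 464 in bitransgenic arrays and 415 to 460 in control arrays. Mia read 31399 to 42666 in the bitransgenic lungs and 734 to 1071 in the controls. All 9 listed lung epithelium markers passed the filter at E18.5, and at E11.5 Sftpc read 1503 in lung and 257 in trachea. The Actb 3′ to 5′ signal ratio, a sign of RNA quality, was 1.51 to 1.65 in bitransgenic arrays and 1.28 to 1.501 in controls, and moved with every E18.5 comparison below. Its part in the results was not tested beyond a fit with it as a covariate. In these whole tissue samples, fewer cells of a type and less RNA per cell cannot be told apart.

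The family lies in 3 groups of neighbouring genes and 1 single gene in the RefSeq gene table of GRCm38.p6. Optc, Prelp and Fmod follow one another on chromosome 1, Dcn, Lum, Kera and Epyc on chromosome 10, and Ecm2, Aspn, Omd and Ogn on chromosome 13, while Bgn is on chromosome X. RefSeq promoter windows of 300 bases, 250 before and 50 after the start, were at hand for 6 of the 8 members (build GRCm38.p6). Those of Fmod and Prelp are shown because these neighbours had E18.5 differences of opposite sign. They span chr1:134037004-134037303 on the plus strand and chr1:133921352-133921651 on the minus strand. Capitals mark CAGAC or its reverse complement GTCTG, the core of the element bound by Smad proteins, which carry TGF-beta signals.
Fmod: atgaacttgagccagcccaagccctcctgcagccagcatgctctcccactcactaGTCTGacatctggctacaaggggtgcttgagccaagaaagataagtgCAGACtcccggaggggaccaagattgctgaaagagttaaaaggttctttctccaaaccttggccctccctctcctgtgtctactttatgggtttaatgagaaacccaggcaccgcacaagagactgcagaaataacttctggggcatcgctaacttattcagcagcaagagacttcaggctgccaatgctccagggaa
Prelp: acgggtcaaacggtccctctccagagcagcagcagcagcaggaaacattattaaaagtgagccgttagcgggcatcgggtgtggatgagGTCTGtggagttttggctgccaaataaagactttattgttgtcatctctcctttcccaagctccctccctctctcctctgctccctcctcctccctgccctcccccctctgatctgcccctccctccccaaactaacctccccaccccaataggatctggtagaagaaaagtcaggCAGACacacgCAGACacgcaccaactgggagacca

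CAGAC on either strand occurred 2 times in the Fmod window, 3 times in that of Prelp and 0 times in those of Omd, Bgn, Aspn and Ogn. It occurred in 49.6% of all 32851 promoter windows, so a match is common. The TATA box TATAAA, on either strand, was found in the windows of Aspn and Ogn and in 13.6% of all windows. The GC box GGGCGG, on either strand, was found 3 times in that of Bgn and in 35.7% of all windows. No member's window held more than 1 of the 3 motifs, and a match is only a string of letters.

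The first comparison asked what MIA overexpression does to the E18.5 lung. Fibromodulin is a class II member that binds collagen and guides fibril growth in tendon. Fmod was measured by 6 probe sets, and in each of them the 3 bitransgenic lungs lay above the 3 controls, beside 9.29% of all probe sets and 8.86% of all genes. That separation is what the family was chosen by. The probe set with the highest mean, 1456084_x_at, stands for the gene here. It read 13034, 9570 and 7847 in the bitransgenic lungs, against 4667, 3998 and 2723 in the control lungs. The groups did not overlap, and array 1 was the highest of its group in both. The means were 10150 ± 2642 in bitransgenic lungs and 3796 ± 988 in control lungs (SD, n = 3 each), a log2 change of 1.401 on the scale of log2 of the signal plus a pseudocount of 86.4.

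The size of the Fmod difference depended on the probe set. Affymetrix marks with _x_at those probe sets in which some probes also match other sequences, and 5 of the 6 Fmod probe sets are of that kind. The plain probe set, 1415939_at, read 1660, 1755 and 2493 in bitransgenic lungs, against 1147, 997 and 1347 in control lungs. Its log2 change was 0.70, with bitransgenic 3 the highest array, which was the lowest bitransgenic array on 1456084_x_at. Cross-hybridisation of the _x_at probe sets was not tested.

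The remaining 4 probe sets lay between these. On 1438966_x_at the bitransgenic lungs read 2678, 1187 and 1162, against 739, 739 and 515 in the controls, a log2 change of 1.14. Here bitransgenic 1 stood apart from the other bitransgenic arrays. On 1437685_x_at the signals were 2564, 1929 and 1580 in bitransgenic lungs and 1100, 799 and 1221 in control lungs (log2 change 0.90). Means on 1437324_x_at were 1503 ± 254 in bitransgenic lungs and 796 ± 69.9 in controls, and on 1437718_x_at they were 2083 ± 304 in bitransgenic lungs and 1122 ± 110.0 in controls (SD, n = 3 each). Both of those differences came to a log2 change of 0.84. Fitted with the Actb ratio, Fmod on 1456084_x_at had a log2 difference of 0.92, smaller than the 1.401 without it.

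**Figure D1:**
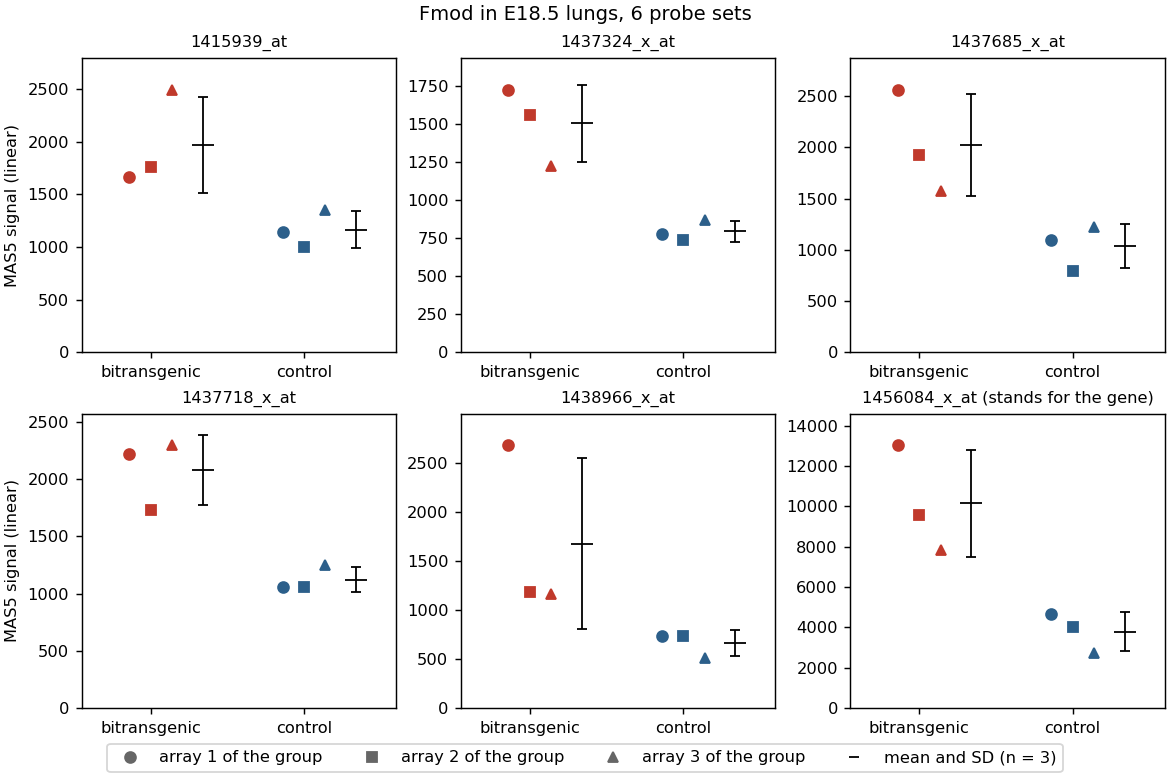
MAS5 signal (vertical axis, linear) of the 6 Fmod probe sets in the 3 bitransgenic and 3 control E18.5 lungs; symbols mark arrays, and black bars the mean and SD. In every panel the bitransgenic arrays lie above the control arrays, with log2 changes from 0.70 on 1415939_at to 1.401 on 1456084_x_at.

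Among the relatives, none of the 6 genes tested passed the limma threshold of an adjusted p under 0.05, and 1 had an unadjusted p under 0.05, as did 1223 of all 12625 genes. Over all genes tested 0.673% passed in either direction, 0.238% higher and 0.436% lower, so a count of 0 among 6 is no result about the relatives. The relatives' median log2 change was -0.03, beside 0.01 for all genes. In simulated data (12625 genes, 200 of them changed) a change of 1.5-fold was recovered for 10.7% of the changed genes and one of 2-fold for 55.5%. The simulated noise was normal and independent, and spreads were shuffled between genes, so they did not follow intensity as in the real arrays. The rates hold for that setting, in which a 1.5-fold change mostly did not pass the threshold. With array weights, a setting in which 1339 genes passed over all, 1 relative passed.

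That relative was Prelp, a class II member that anchors basement membranes to collagen and lies beside Fmod on chromosome 1. Its probe set 1416321_s_at read 443, 671 and 715 in the bitransgenic lungs, against 972, 991 and 1357 in the control lungs. Every bitransgenic array lay below every control. The log2 change was -0.79 (95% interval -1.26 to -0.31, n = 3 per group, limma adjusted p = 0.207), and -0.71 with array weights (limma adjusted p = 0.0116). The estimation of those weights stopped before full convergence. With 1 array left out the limma adjusted p was 0.228 to 0.597. Groups that do not overlap with the bitransgenic side lower made up 7.56% of all genes, and among the relatives Prelp was 1 of 6. A second probe set, 1416322_at, was below the filter and read 43.8, 120 and 66.3 in bitransgenic lungs, against 105, 218 and 188 in controls, with overlapping groups.

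Summed signals of the 6 mesothelium markers were 22728 to 27519 in bitransgenic lungs and 34425 to 52812 in controls, and those of the 9 lung epithelium markers 152073 to 183386 in bitransgenic lungs and 219958 to 265747 in controls. Both sums were lower, as Prelp was, and no marker of either list was below the pseudocount on all arrays. Msln and Krt19 made up most of the mesothelium sum. These 2 had non-overlapping groups on the lower side, beside 7.56% of all genes. Of the 6 mesothelium log2 changes 5 were below 0 (median -0.29), with Upk3b at -0.01 and Upk1b at 0.06. The epithelium list did not move as a whole, with 5 of 9 log2 changes above 0 and a median of 0.0021. In it 4 genes had non-overlapping groups on the lower side (Sftpa1, Sftpb, Sftpd and Scgb1a1), beside 7.56% of all genes. On the higher side were 2, Epcam (log2 change 0.63) and Foxa2 (0.29), beside 8.86% of all genes. Sftpc was at 0.0021, with overlapping groups. The genes named from both lists were picked out after their values were seen. In the mesothelium list 1 of 6 genes passed, Msln, lower in bitransgenic lungs (log2 change -1.61), and in the epithelium list 1 of 9, Sftpa1, also lower (log2 change -4.45). Of 6 cardiac muscle markers tested 1 passed, the myosin gene Myh7, at 10399, 9322 and 9240 in bitransgenic lungs against 6182, 4710 and 4929 in controls (log2 change 0.87). Over all genes 0.673% passed. The cardiac list did not rise as a whole, with 4 of 6 log2 changes below 0 and a median of -0.15. The cardiac sums overlapped, at 43724 to 62855 in bitransgenic lungs and 34887 to 61645 in controls. Their part in the Prelp and Fmod differences was not tested. Fitted with the Actb ratio, Prelp came to -0.41 on the log2 scale (limma adjusted p = 0.833).

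Lumican, the product of the class II gene Lum, regulates collagen fibrils in cornea and skin. Lum read 1001, 1078 and 2041 in the bitransgenic lungs, against 1100, 1256 and 1548 in control lungs. The groups overlapped, and array 3 was the highest in each. The log2 change was 0.02 (95% interval -0.56 to 0.59, limma adjusted p = 0.993), an interval that holds changes of up to about 1.5-fold either way.

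Osteomodulin, from the class II gene Omd, is known from bone. Omd read 204, 105 and 198 in bitransgenic lungs, against 166, 113 and 134 in controls. Its mean was below the filter, so the gene was not tested, and the groups overlapped.

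The class I genes encode proteins that carry chondroitin or dermatan sulphate or, for asporin, an aspartate-rich stretch. Decorin, from Dcn, coats collagen fibrils and binds TGF-beta. Its probe set 1449368_at read 3715, 4611 and 7305 in the bitransgenic lungs, against 3379, 3864 and 6183 in the control lungs. The spread within each group exceeded the difference between them, and array 3 was again the highest in both. The log2 change was 0.21 (95% interval -0.41 to 0.83, limma adjusted p = 0.875). It was -0.06 without bitransgenic 3, 0.46 without control 3 and 0.68 when fitted with the Actb ratio.

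The other Dcn probe set, 1441506_at, was below the filter, with 140, 270 and 389 in bitransgenic lungs against 149, 101 and 157 in controls. Summed signals of the 12 fibroblast markers were also highest in array 3 of each group, at 279132 in bitransgenic 3 and 307205 in control 3, and their ranges overlapped (243106 to 279132 in bitransgenic lungs and 247220 to 307205 in controls).

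Biglycan, from Bgn, is a class I member of bone, skin and vessel walls. Its 3 probe sets gave the narrowest intervals of the family. On 1437889_x_at the bitransgenic lungs read 33527, 33373 and 37272, against 31440, 32049 and 39595 in controls. The log2 change was 0.02 (95% interval -0.25 to 0.29, limma adjusted p = 0.978), and the other probe sets had -0.03 and -0.02. With the groups overlapping on all 3 probe sets, the interval excluded a 1.5-fold change in either direction.

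Asporin, from Aspn, binds collagen and TGF-beta in cartilage and tooth ligament. Aspn probe set 1448421_s_at read 6740, 5675 and 2963 in bitransgenic lungs, against 5444, 4578 and 5344 in controls. Bitransgenic 3 was the lowest of all 6 arrays and bitransgenic 1 the highest. The log2 change was -0.07 (95% interval -0.66 to 0.52, limma adjusted p = 0.966), and 0.27 without bitransgenic 3. The plain Aspn probe set, 1416652_at, had a log2 change of 0.06, with bitransgenic 3 again the lowest array.

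Osteoglycin, the product of Ogn and also called mimecan, is the class III member. Ogn probe set 1419663_at read 26910, 28196 and 22965 in bitransgenic lungs, against 31939, 30625 and 22667 in controls. The groups overlapped through control 3, the lowest array. The log2 change was -0.12 (95% interval -0.45 to 0.22, limma adjusted p = 0.873). On 1419662_at the bitransgenic lungs read 7175, 9515 and 9147, against 9506, 11185 and 16247 in controls. There control 3 was the highest array, and the log2 change was -0.49 (95% interval -0.93 to -0.04, limma adjusted p = 0.479 over all probe sets), with groups that overlapped slightly.

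**Figure D2:**
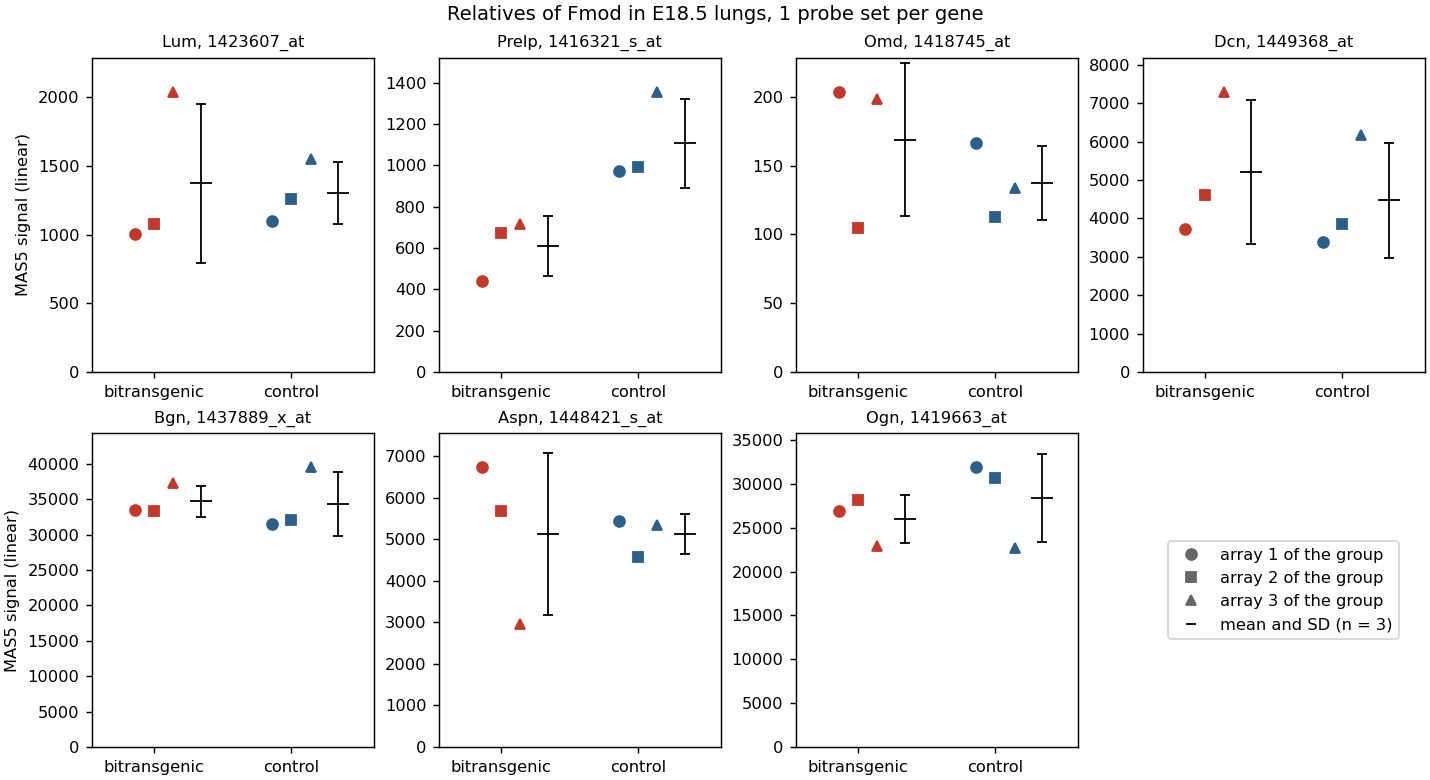
MAS5 signal (vertical axis, linear) of 7 relatives of Fmod in 3 bitransgenic and 3 control E18.5 lungs, 1 probe set per gene; symbols mark arrays, and black bars the mean and SD. Prelp is the gene whose bitransgenic arrays all lie below the controls, while Lum and Dcn are highest in array 3 of each group.

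Over probe sets in place of genes, 10 of the 13 probe sets of the relatives passed the filter. None of the 10 was called, beside 0.444% of all 27022 probe sets (0.163% higher and 0.281% lower), and 9 had overlapping groups. Of the 10 log2 changes, 4 were above 0 and 6 below. Groups that did not overlap made up 16.6% of all probe sets in either direction (7.3% on the lower side), and the relatives had 1 of 10, on the lower side.

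**Figure D3:**
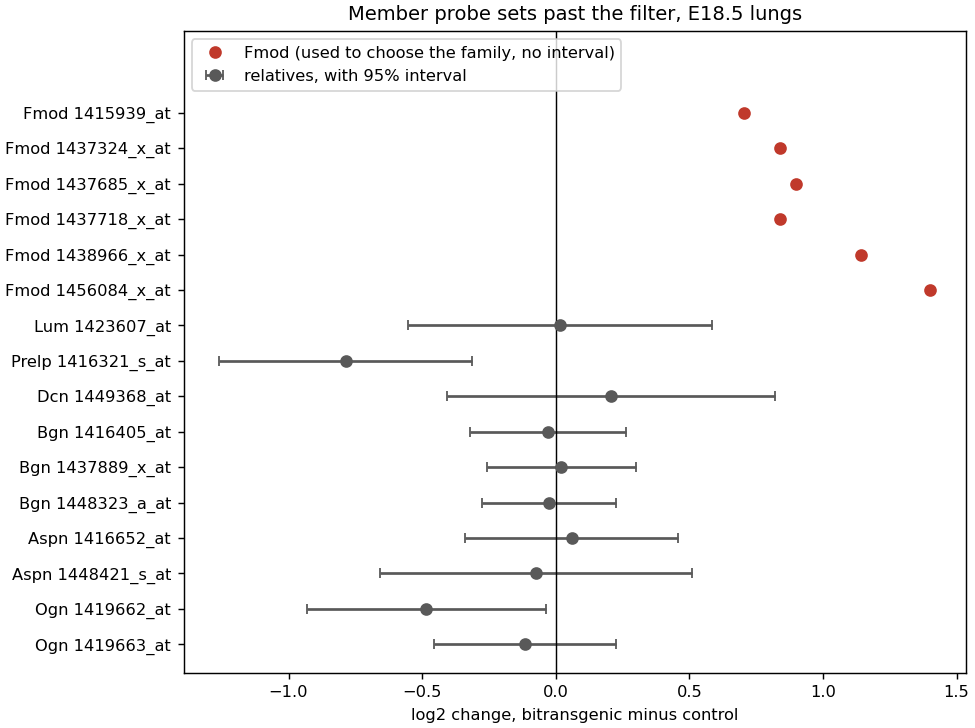
Log2 change (bitransgenic minus control) of the 16 member probe sets past the filter; bars on the relatives are 95% intervals from the limma fit over probe sets. The Fmod points run from 0.70 to 1.401, above every point of the relatives, of which Prelp 1416321_s_at is the lowest at -0.79. Fmod was chosen for its higher signal in bitransgenic lungs, and its points are probe sets of 1 gene on the same arrays. Its place above the relatives is therefore no test.

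The genes most like Fmod were taken as those with the highest Pearson correlation of log2 values over the 6 E18.5 arrays. They were Klc3, Oat, Syn3, Prim1 and Grb14, with r from 0.992 to 0.995 over 6 arrays that share the group difference. None of them passed the threshold (limma adjusted p from 0.292 to 0.610), and their log2 changes were 0.32 to 0.50. With the plain Fmod probe set the top 5 were Phex, Zfp472, Ints6, Pbxip1 and Ywhab, and 0 genes were in both lists. Within the family r with Fmod ran from -0.98 for Prelp to 0.14 for Aspn.

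Other leucine-rich repeat proteoglycan genes and wider gene lists were counted too. Over all genes tested 0.673% passed, and 1223 of 12625 had an unadjusted p under 0.05. With array weights 1339 genes passed over all. Counts in this and the following gene lists stand beside those, and 0 calls among so few genes is no result about a list. Of 10 listed genes 8 were on the array, 5 were tested and 0 were called by limma, with 1 at an unadjusted p under 0.05 and a median log2 change of -0.07. That gene was Chadl, related to chondroadherin, at 405, 436 and 359 in bitransgenic lungs, against 302, 226 and 254 in controls (log2 change 0.49, limma adjusted p = 0.484). For Chad, the chondroadherin gene of cartilage, the log2 change was -0.45 with wide spread (limma adjusted p = 0.830). Array weights gave 1 call in this list.

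Genes that assemble collagen fibrils gave 0 calls among 26 tested of 30 listed, with 6 at an unadjusted p under 0.05 and a median log2 change of -0.03. Pcolce2, an enhancer of procollagen processing, read 2694, 3226 and 2321 in bitransgenic lungs, against 4219, 4667 and 4065 in controls, with no overlap (log2 change -0.65, limma adjusted p = 0.125). Bmp1, the procollagen proteinase that such enhancers assist, read 6193, 6188 and 8993 in bitransgenic lungs, against 4324, 4433 and 4815 in controls (log2 change 0.62, limma adjusted p = 0.190). Array weights gave 6 calls.

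In the TGF-beta list 0 of 19 genes tested were called, with 3 at an unadjusted p under 0.05 and a median of 0.07. Ccn2, a matricellular target of TGF-beta, read 11023, 11414 and 8884 in bitransgenic lungs, against 17903, 14961 and 13550 in controls (log2 change -0.56, limma adjusted p = 0.190). Ltbp3, which holds latent TGF-beta in the matrix, differed by 0.35 on the log2 scale (limma adjusted p = 0.388). Array weights gave 4 calls.

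Enzymes that build and sulphate glycosaminoglycan chains also gave 0 calls, among 28 tested of 31 listed, with 2 at an unadjusted p under 0.05. Their median log2 change was -0.14, and 18 of the 28 were below 0, beside 5981 of all 12625 genes. Chst1, which sulphates keratan chains, read 1012, 883 and 1047 in bitransgenic lungs, against 1260, 1400 and 1441 in controls (log2 change -0.45, limma adjusted p = 0.330). Chsy1, a chondroitin synthase, was at -0.41 on the log2 scale (limma adjusted p = 0.410). Array weights gave 4 calls.

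Other proteoglycans gave 0 calls among 18 tested of 24 listed, with 5 at an unadjusted p under 0.05 and a median of 0.05. Spock2, also named testican-2, read 1533, 2130 and 1931 in bitransgenic lungs, against 3287, 3627 and 5320 in controls, with no overlap (log2 change -1.07, limma adjusted p = 0.0558). Srgn, the serglycin gene of granule-bearing blood cells, was at -0.57 on the log2 scale (limma adjusted p = 0.170). Array weights gave 4 calls.

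Many of these proteoglycans are known from skeletal tissue, and its markers were counted too. Of 13 cartilage markers 4 passed the filter, and none of the 4 was called by limma, with 0 at an unadjusted p under 0.05. Their summed signals were 2857 to 3806 in bitransgenic lungs and 3372 to 3754 in controls, and Col9a2 was below the pseudocount on all arrays. Bone markers summed to 3590 to 4791 in bitransgenic lungs and 3186 to 3827 in controls over 5 genes, of which 3 were tested and 0 called, with 1 at an unadjusted p under 0.05. That gene was Phex, a bone and tooth peptidase gene that made up most of the sum, at 2617, 2804 and 3323 in bitransgenic lungs against 2213, 2024 and 2340 in controls. Its groups did not overlap, as was so on the higher side for 8.86% of all genes (log2 change 0.39, limma adjusted p = 0.395). The bone list did not rise as a whole. Of the 3 genes tested 2 were below 0, Alpl at -0.16 and Sp7 at -0.19, and the median was -0.16. Tendon markers summed to 5545 to 8350 in bitransgenic lungs and 4657 to 6707 in controls over 6 genes, with Kera below the pseudocount on all arrays and Egr1, an early response gene, as most of the sum. None of the 3 tendon genes tested was called by limma, and 0 had an unadjusted p under 0.05. The summed ranges of all 3 lists overlapped between the groups. What part these markers have in the Fmod difference was not tested.

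The second comparison set E11.5 lung beside E11.5 trachea. Since each tissue had a single array, no value has a replicate check and none was tested. Genes were called apart if they differed by more than 2-fold and the brighter signal topped the table's median of 543. Fmod was apart towards lung, which is what the family was chosen on. Of the 3 relatives that could be compared, 1 was apart, towards trachea, beside 3.42% of 5114 genes apart in either direction (1.17% towards lung and 2.25% towards trachea).

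Fmod probe set 99152_at read 1103 in lung and 349 in trachea, a log2 ratio of 1.45 with a pseudocount of 84.3. The second Fmod probe set, 161373_r_at, read 27.1 in lung and 37.1 in trachea, both below the pseudocount, and gives no ratio of use. Affymetrix marks with _r_at the probe sets for which its usual rules of probe choice were relaxed. Averaged over both probe sets the log2 ratio of Fmod was 0.67, no longer over 2-fold.

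Dcn went the other way, with 793 in lung and 2557 in trachea, a log2 ratio of -1.59. Bgn read 5249 in lung and 6918 in trachea on 96049_at, and 1332 in lung and 1751 in trachea on 162347_f_at, ratios of -0.39 and -0.37 on the log2 scale. Lum read 737 in lung and 1029 in trachea (log2 ratio -0.44). The 3 relatives compared were thus all lower in lung than in trachea, Bgn and Lum by less than 2-fold. The median log2 ratio of all genes was -0.01. Fmod was chosen for its higher lung signal, so its contrast with these 3 genes is a description and was not tested.

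Ogn and Omd did not reach the median signal in either tissue. Ogn read 381 in lung and 438 in trachea on 99549_at, and 299.98 in lung and 411 in trachea on 160877_at. Omd read 78.5 in lung and 153 in trachea, with the lung signal under the pseudocount.

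**Figure D4:**
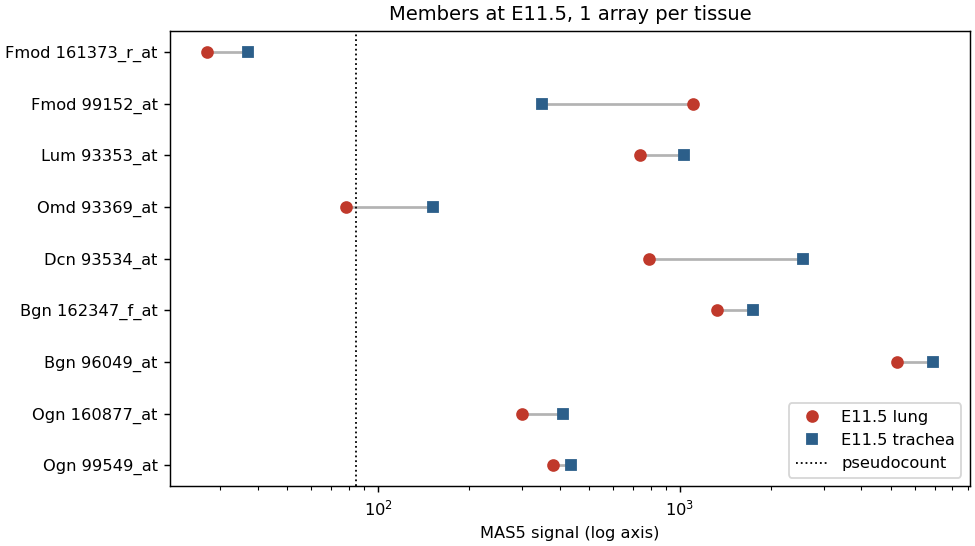
MAS5 signal (horizontal log axis) of 9 member probe sets in E11.5 lung (circles) and E11.5 trachea (squares), 1 array each; the dotted line is the pseudocount of 84.3. Fmod 99152_at is the 1 probe set with its lung value above its trachea value.

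In the wider pathway lists at E11.5 the few genes over 2-fold were all on the trachea side. Among 17 collagen fibril genes compared the median log2 ratio was -0.38, beside -0.01 for all genes, and Thbs2, a matricellular thrombospondin gene, read 149 in lung and 652 in trachea. Among 11 TGF-beta genes the median was 0.02, and Ltbp4 read 955 in lung and 2292 in trachea. Among 12 other proteoglycans the median was -0.36. Spock2 read 161 in lung and 934 in trachea, and the calcium-binding Smoc1 387 in lung and 866 in trachea. The 6 chain-building enzymes compared had a median of -0.21 and none over 2-fold.

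Cell type markers also differed between these 2 samples. Of 4 cartilage markers compared, 2 were over 2-fold higher in trachea, Col11a1 at 471 in lung and 2206 in trachea and Col9a3 at 775 in lung and 2280 in trachea. Of 4 smooth muscle markers 3 were, Tagln (log2 ratio -1.55), Acta2 (-1.26) and Myh11 (-1.20), and of 9 fibroblast markers 1, Mfap4 (-1.46). Those lay on the trachea side, as Dcn did. Of 7 lung epithelium markers on the array 3 were compared, and 1 was over 2-fold towards lung, Sftpc at 2.22. Cdh1 was at 0.34, the median of the 3, and Foxa2 was near 0 at 0.04. The 1 mesothelium marker compared, Upk3b, was at 0.53. The part of these markers in the Dcn and Fmod ratios was not tested.

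**Figure D5:**
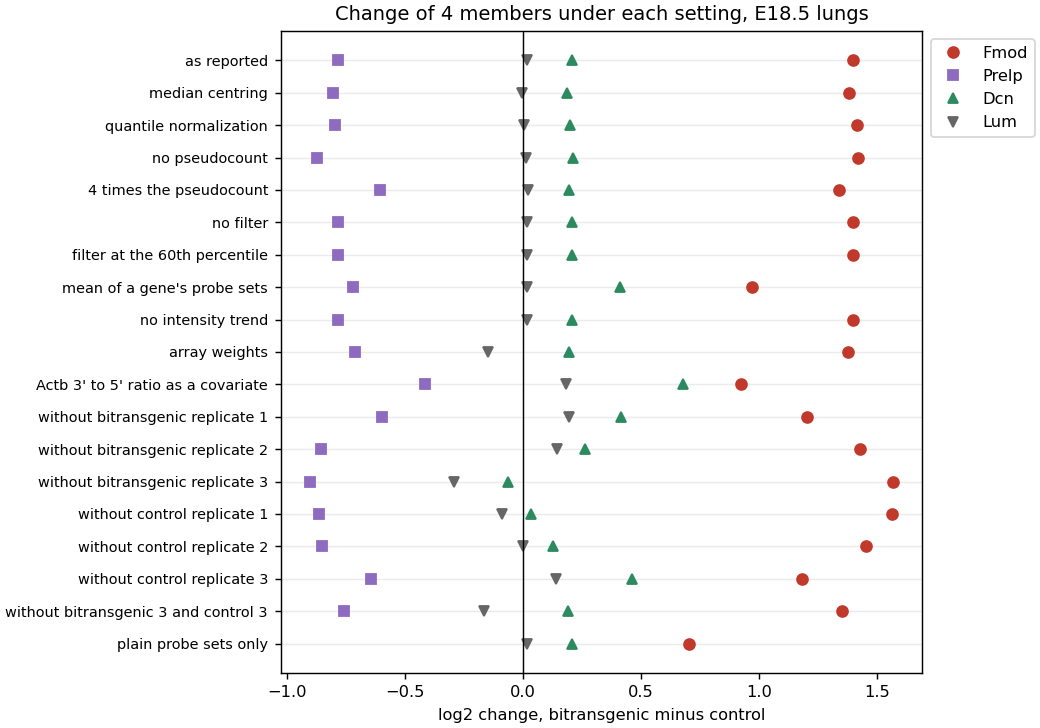
Log2 change (bitransgenic minus control, horizontal axis) of Fmod, Prelp, Dcn and Lum under each processing setting. Fmod stays above 0 in all settings shown, from 0.70 to 1.57, and Prelp below 0 wherever it was measured, while Dcn and Lum lie on both sides of 0. Fmod was chosen for its rise, so its constant sign is no support.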

How the data were processed

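The deposited tables hold intensity, 1 linear MAS5 signal per probe set and array, made by the authors with MAS5 per the submitters' processing notes (version not given in the sources used here). Detection calls were not used here. Each E18.5 array had a 2% trimmed mean of 1500 before any step here. Control probe sets (64 at E18.5, 66 at E11.5) were left out, and probe sets were named from the platform annotation (34945 of 45037 with 1 symbol at E18.5, 932 with several, 9160 with none).

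Signals were moved to the log2 scale after adding the table's 20th percentile (86.4 at E18.5, 84.3 at E11.5). The probe set with the highest mean stood for a gene, and genes at or above the 40th percentile of mean log2 were tested (12625). The test was limma 3.58.1 under R 4.3.3 (lmFit, eBayes with trend), two-sided, with Benjamini-Hochberg adjustment over all genes and a threshold of 0.05. In the simulated data, with spreads shuffled between genes, 91.8% of 4-fold changes were recovered and 3.12% of calls were false. These rates may differ in the real arrays. The number of arrays limits the precision. Exact permutation of 3 against 3 cannot go below p = 0.1 and was not used.

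Members and lists were chosen with earlier results of these data known. Genes were named as the 8 members, up to 4 genes past the threshold in each pathway list or else the 2 with the smallest p, at E11.5 up to 3 genes over 2-fold per list and direction, the 5 most like Fmod, and Mia. Marker genes past the E18.5 threshold, and a few others as stated, were named after their values were seen. Cardiac muscle (1 of 6 called), smooth muscle (0 of 7), fibroblast (0 of 11), tendon (0 of 3) and bone (0 of 3) markers were counted beside those in the report. Alternatives covered scaling, pseudocount, filter, probe sets per gene, variance model, the Actb ratio as a covariate and each array left out. Plain probe sets alone, and the loss of bitransgenic 3 and control 3 together, were added after seeing the data. Figures were drawn with matplotlib 3.10.9.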

Additional observations from a re-analysis of the deposited data

How the results depend on the processing

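Fmod kept its direction in all 18 alternatives. Fmod was chosen for its rise and its groups did not overlap, so this direction was largely set beforehand and is no support. Its log2 change was 0.97 with the mean of its probe sets, 0.92 with the Actb ratio as a covariate, 0.70 with plain probe sets alone, and 1.18 to 1.57 when 1 array was left out. No relative passed in any alternative but array weights, where 1 did, Prelp. The count of all genes called, 85 as reported, was 1339 with array weights (whose estimation stopped before full convergence), 20 with the Actb ratio as a covariate, 189 without bitransgenic 3 and control 3, and 22 to 97 with 1 array left out (22 without control 2, 41 without bitransgenic 1, 36 without bitransgenic 3). The count of relatives called was 0 in every fit without 1 array. At E11.5, 1 member in place of 2 was apart when probe sets of a gene were averaged. In the gene lists, array weights gave 1 to 6 calls and the loss of both arrays 3 gave 1 call in 4 lists, where 0 were reported. Other proteoglycans, with Spock2 near the threshold, also had 1 call under median centring, when probe sets were averaged, with plain probe sets and without control 1.

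Small changes turned sign. Lum was -0.0031 under median centring, -0.15 with array weights, -0.17 without bitransgenic 3 and control 3, and between -0.29 and 0.19 with 1 array left out. Bgn was -0.011 with the mean of its probe sets, -0.029 with plain probe sets and -0.039 to 0.13 with 1 array left out. Aspn was 0.28 with array weights, 0.0070 with the Actb ratio, 0.30 without bitransgenic 3 and control 3, 0.060 with plain probe sets, and -0.31 to 0.27 with 1 array left out. Dcn was -0.062 to 0.46 with 1 array left out. The causes were not tested. No paired analysis was possible because no number or label pairs a bitransgenic array with a control array.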
